A study of Mus musculus with 8 samples.

Results

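The B cells of mice in which Cre had marked part of the B lineage were compared by sort: B cells from YFP+ libraries against B cells from total splenocyte libraries, both taken from cKO mice. The cKO mice were Eif3e fl/fl Cγ1Cre Rosa26-YFP LSL animals, the controls were littermates with Cγ1Cre and the YFP reporter but no floxed Eif3e, and both were 2 months old, on the C57BL/6J background by the study's methods. Each genotype was sorted as total live cells and as YFP+ cells in 2 batches, which gives 4 groups of 2 libraries, and each library pooled cells of several mice. Spleen is the labelled tissue, although the protocol text also names lymph nodes. A cell was counted as a B cell when it had more than 100 detected genes, at most 10% mitochondrial unique molecular identifiers (UMIs), at least 3 UMIs of Cd79a, Cd79b and Ms4a1 together and 0 UMIs of Cd3d, Cd3e and Cd3g. Members were thus chosen by their UMI counts of these 6 genes and by their sort, and no test is made on those genes. This kept 32336 B cells in the 4 cKO libraries, of 83704 filtered cells in the 8 libraries. By library, given here and throughout as batch 1 and then batch 2, they were 6618 and 6177 cKO total B cells and 9295 and 10246 cKO YFP+ B cells, beside 5544 and 6953 control total and 8429 and 11340 control YFP+ B cells.

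Cγ1Cre places Cre under transcription of the immunoglobulin γ1 constant region, which activated B cells start when they receive T cell help and IL-4, and Cre then cuts the floxed alleles and switches on YFP for good. By this design YFP marks B cells, and their offspring, in which that transcription took place. The past of each cell was not measured here. Eif3e encodes a subunit of eIF3, the complex that brings the small ribosomal subunit to mRNA. Activated B cells raise surface ligands such as CD80 and CD86 that costimulate T cells, enlarge their nucleoli, divide and may enter germinal centres or become plasma cells. The gene tables hold no feature for YFP or Cre, so the YFP+ cells inside the total libraries could not be set aside, and every difference below is between marked B cells and a mixture that contains them.

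The B cells of a library summed to between 39248501 and 103440892 UMIs. B cells made up 63.2 and 58.4% of the filtered cells in the cKO total libraries and 91.7 and 98.0% in the cKO YFP+ libraries. Median depth per B cell was close (5697 and 6280 against 6002 and 6635 UMIs), but the 95th percentile was 13360.3 and 16059 UMIs in total and 27078 and 29744 UMIs in YFP+ B cells. The YFP+ libraries thus held a tail of B cells with far more RNA counted, and values after thinning every cell to 2000 UMIs are given beside many of the results. Genes that set the gate are a description only: Cd79a stood at 1573 and 2084 CPM in total and 1367 and 1811 CPM in YFP+ B cells. B cell genes outside the gate were present in both sorts, with Ebf1, a B lineage factor, at 2275 and 2011 CPM in the total libraries and 1637 and 1461 CPM in the YFP+ libraries, and 14 to 65 cells a library lay at exactly 3 marker UMIs against 24 to 60 with 2. Libraries shared at most 86 barcodes, under 1% of the smaller library in each pair.

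Eif3e, the targeted gene (chr15:43250058-43282719, minus strand, GRCm38), stood at 205 and 290.5 CPM in the total libraries and 234 and 315 CPM in the YFP+ libraries, and at 189.7 and 250.5 CPM in control total and 225 and 313 CPM in control YFP+ B cells. Its log2 fold change, YFP+ over total in cKO, was 0.15 ± 0.07 SE with an adjusted p of 0.141. The libraries count 3′ ends, so a transcript that has lost an internal piece can still be counted, and this level does not check the deletion. Of the 14 eIF3 subunits, 10 were called higher, where 18.8% of all genes tested were, and the median log2 fold change was 0.48 (0.24 with cells thinned), with Eif3g at 0.76 and Eif3b at 0.68. The same list had a median of 0.49 between the control sorts. With 1 cKO library left out, 3 to 9 were called higher, and the near-identical pair Eif3j1 and Eif3j2 may share reads.

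The question asked of the data was what sets Cre-marked B cells apart from total B cells of cKO mice. Sorts were paired by the batch number in the labels, which do not state that both sorts of a batch came from the same mice. Of 16490 genes tested by edgeR's quasi-likelihood F test with genotype and batch as a block, 5425 (32.9%) passed an adjusted p of 0.05, 3105 higher (18.8%) and 2320 lower (14.1%) in YFP+ B cells. Changes beyond a doubling, a log2 fold change over 1 in size, were 803 higher (4.87%) and 600 lower (3.64%). Over all genes tested, the log2 fold changes of the 2 batches had a correlation of 0.752, which describes genes and not replicates. The count rests on both cKO pairs: it was 1993 without total replicate 1, 1241 without YFP+ replicate 1, 2623 without total replicate 2 and 2403 without YFP+ replicate 2. Without the block 231 genes passed (1.40%). With each cell thinned to 2000 UMIs 2586 of 13216 passed, 1525 higher and 1061 lower. List counts given below for thinned cells or without 1 cKO library stand beside these smaller totals. In bulk sums of this kind, fewer cells of a type and less RNA per cell cannot be told apart.

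Costimulatory ligands moved in both directions. Tnfsf4, which encodes OX40L, the ligand that sustains activated T cells through OX40, was nearly absent from total B cells, at 0.241 and 0.219 CPM (12 and 10 UMIs in all), and stood at 14.6 and 16.6 CPM in YFP+ B cells (1228 and 1477 UMIs). Its groups lay far apart, with a log2 fold change of 6.06 ± 0.20 SE and an adjusted p of 6.32e-05, and 66.9-fold by the fit. Cd80, a ligand of CD28 and CTLA-4 on T cells (chr16:38455561-38496335, plus strand), stood at 7.06 and 6.40 CPM in the total libraries and 36.8 and 37.5 CPM in the YFP+ libraries. Both YFP+ libraries lay above both total libraries, by 5.51-fold (log2 fold change 2.46 ± 0.09 SE, adjusted p = 6.32e-05). Cd70, the ligand of CD27, went from 0.181 and 0.263 CPM (9 and 12 UMIs) to 4.87 and 4.11 CPM (409 and 366 UMIs), a log2 fold change of 4.33 ± 0.34 SE. Cd86, the partner of Cd80 at the same receptors on T cells, went the other way, from 321 and 291 CPM in total to 228 and 199 CPM in YFP+ B cells (log2 fold change -0.52 ± 0.07 SE, adjusted p = 0.00234). The Cd86 groups did not overlap, but its change was -0.20 with cells thinned (adjusted p = 0.0533). Icosl, the ligand of ICOS on follicular helper T cells, fell by 0.69 on the log2 scale, from 36.3 and 34.7 to 26.1 and 18.6 CPM.

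**Figure D1:**
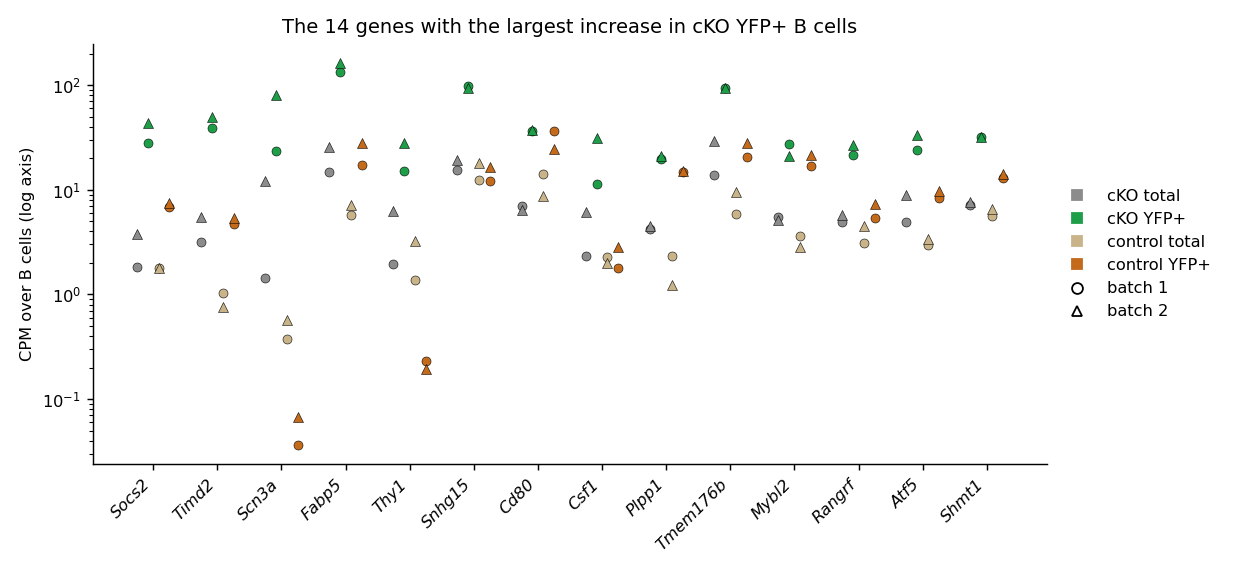
Levels of the 14 genes that rose most in cKO YFP+ B cells among genes of at least 20 CPM, in CPM of the summed B cells on a log axis, with 1 point per library for the 4 groups (circles for batch 1, triangles for batch 2). Cd80 sits at 7.06 and 6.40 CPM in cKO total and at 36.8 and 37.5 CPM in cKO YFP+ B cells, and Scn3a and Thy1 lie lowest in control YFP+ B cells.

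Over the 14 costimulation and adhesion genes, 8 rose and 5 fell, with a median log2 fold change of 0.35 against -0.02 over all genes tested. Among the others that rose were Tnfsf9 (4-1BBL) at 1.42, the adhesion ligand Icam1 at 1.01 and Slamf1 at 0.90. Tnfsf8 (CD30 ligand) at -1.18 and Cd274 (PD-L1) at -0.68 were among the 5 that fell. Cd40 rose least, from 56.4 and 65.3 to 68.0 and 79.6 CPM (0.28), and its call was lost without any 1 of the 4 cKO libraries. With 1 cKO library left out, 5 to 6 genes were called higher and 2 to 3 lower, and with cells thinned 7 and 2. Of 12 genes of MHC class II, the other side of antigen presentation, 1 was called, H2-Eb1 at 0.26, a call lost in every one of those refits, while H2-Ab1 was 0.10, Cd74 -0.14 and the regulator Ciita -0.04, none called. The list's median was -0.01, and with cells thinned 3 genes were called higher, at a median of 0.15.

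Most Cd80 and Tnfsf4 UMIs of YFP+ B cells came from the deepest cells. In the YFP+ libraries the 5% of B cells with the most UMIs held 70.7% and 82.3% of all Cd80 UMIs and 78.7% and 90.5% of all Tnfsf4 UMIs, where those cells held 23.2% and 23.0% of all UMIs. In total B cells the same fraction held 39.9% and 50% of Cd80 UMIs. With every cell thinned to 2000 UMIs the log2 fold change of Cd80 was 1.54 and that of Tnfsf4 5.6. Without the deepest 5% they were 1.31 and 3.83, and without cells in the cycling, germinal centre or plasma cell gates 2.19 and 5.49. All of these passed the test. Gates were read on thinned cells, and outside them 47 of 50 cell cycle genes were still called higher, at a median of 1.36. Leaving out gated cells thus did not remove all cells with cell cycle RNA. Without the block, Tnfsf4 (adjusted p = 0.0143), Cd80 (0.0173), Cd70 (0.0161) and Socs2 (0.0143) passed and Cd86 (0.311) did not. No doublet caller was run, and the part of cell doublets in these deep cells was not tested.

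Socs2, a feedback inhibitor induced by STAT5, stood at 1.83 and 3.75 CPM in the total libraries and 28.1 and 43.0 CPM in the YFP+ libraries, with a log2 fold change of 3.71 ± 0.13 SE and an adjusted p of 6.32e-05. Every YFP+ value lay above every total value, and thinning left 2.88. Cish, another STAT5-induced feedback inhibitor, differed by batch as well as by sort, at 1.83 and 24.7 CPM in the total libraries and 15.0 and 63.2 CPM in the YFP+ libraries. Within each batch it was higher in YFP+ B cells, with a log2 fold change of 2.02 ± 0.42 SE and an adjusted p of 0.0336, and total cells of batch 2 lay above YFP+ cells of batch 1. Without the block its adjusted p was 0.505. Stat5a rose by 1.54, Socs1 by 1.06 and Il9r, a receptor chain that signals through STATs, by 1.18, while Il2rb stood at -1.30. In a list of 11 STAT5 and feedback genes put together after these values were seen, 7 rose and 1 fell.

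The Cish promoter is shown because, of the called genes named here, it held a pair of STAT-type motifs in 1 window. Bcl6, which was not called, held 3 at 1 start site and 1 at another. The motif was searched as TTCNNNGAA on both strands in windows of 250 bases before to 50 after each start site. It reads the same on both strands, so 1 site is counted once. At least 1 match was found in 8.30% of 32851 RefSeq promoters on GRCm38.p6, and 0.457% held 2 or more. The stretch below is chr9:107296659-107296688, plus strand, 30 bases from the start site of 1 RefSeq transcript of Cish, with both matches in capitals.
Cish: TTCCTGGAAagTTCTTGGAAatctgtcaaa
A match is a run of letters and no evidence of binding. Socs2 and Tnfsf4 have no entry in the promoter table. Of the 14 genes of at least 20 CPM that rose most, 9 had a promoter entry, and 1 of these, Rangrf, held the STAT-type motif. In the same 9, the E-box CACGTG (7.15% of all promoters) was found in Snhg15 alone, and neither the E2F motif TTTCCCGC (1.07%) nor the NF-kB-type motif GGAATTTCC (0.317%) was found.

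The other genes that rose most, among those of at least 20 CPM, had varied roles. Timd2, a TIM family receptor, stood at 3.20 and 5.46 CPM in the total libraries and 39.0 and 49.4 CPM in the YFP+ libraries with a log2 fold change of 3.38 ± 0.15 SE, and its thinned value was 3.31. Fabp5, a fatty acid binding protein, went from 14.8 and 25.7 to 134 and 162 CPM (2.91). Snhg15, a noncoding host transcript, went from 15.4 and 19.4 to 98.7 and 94.6 CPM (2.48). In all 3 genes the total and YFP+ values were well apart. Scn3a, a sodium channel subunit, was 1.45 and 12.2 CPM in the total libraries and 23.3 and 80.3 CPM in the YFP+ libraries (3.21), so batch 2 ran well above batch 1 in both sorts. The deepest 5% of YFP+ B cells held 22.0% and 10% of its UMIs, against 78.5% and 72.5% of Fabp5 UMIs. The list went on with Csf1, the macrophage growth factor (2.33), Plpp1 (2.22), Tmem176b (2.21), Mybl2, a cell cycle transcription factor (2.19), Rangrf (2.15), Atf5 (2.10) and Shmt1, a serine to glycine enzyme (2.09).

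Thy1, best known as a T cell surface protein, rose in YFP+ B cells from 1.95 and 6.27 to 15.0 and 28.1 CPM (2.51, adjusted p = 0.00208). Of the 10 T cell markers Thy1 rose and 6 fell, among them Trbc2 at -4.27 and Cd8a at -3.93. Lck, a kinase of T cell receptor signalling, stood at 23.8 and 39.7 CPM in the total libraries and 29.8 and 48.3 CPM in the YFP+ libraries (0.30, adjusted p = 0.102), and with cells thinned 2 of the 10 were called higher. Summed, the 10 markers stood at 55.0 and 86.2 CPM in total and 53.4 and 81.3 CPM in YFP+ B cells, with the gate genes Cd3d, Cd3e and Cd3g at 0 by construction. Lck and Thy1 made up most of the YFP+ sums, so the close sums do not mean close levels of the other markers. A Thy1 UMI was found in 0.995% and 2.41% of YFP+ B cells and in 28.4% and 26.9% of the T cells of the total libraries. Cells with both B and T cell markers, which the gate left out, numbered 776 and 1151 in total and 205 and 76 in YFP+ libraries.

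Genes of growth rose broadly. All 30 nucleolar ribosome biogenesis genes were called higher, with a median log2 fold change of 0.75 and a range from 0.32 (Bop1) to 1.28 (Nop58, a core protein of snoRNA particles). Npm1, the abundant nucleolar chaperone, went from 596 and 899 to 1412 and 1839.5 CPM (1.14), and Ncl, nucleolin, rose by 0.96. With 1 cKO library left out 22 to 24 were called higher, and with cells thinned 16, at a median of 0.31. Of 26 initiation factors outside eIF3, 20 rose and 1 fell, with a median of 0.43, and 9 to 13 were called higher with 1 cKO library left out and 12 with cells thinned, at a median of 0.17. Between the control sorts the median of these initiation factors was 0.44. In the cell cycle list 41 of 50 rose with a median of 0.97. Tyms, thymidylate synthase, was 1.63 and Ccna2, cyclin A2, 1.36, while Mki67 was 0.56 and not called (adjusted p = 0.0968). That count fell to 7 to 26 without 1 cKO library.

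The p53 response list, targets of the DNA damage and nucleolar stress sensor, also rose, 12 of 18 higher and 1 lower with a median of 0.82. Phlda3, an Akt inhibitor, stood at 0.262 and 0.855 CPM in the total libraries and 10.8 and 16.7 CPM in the YFP+ libraries (log2 fold change 4.70 ± 0.32 SE, adjusted p = 4.75e-04). Cdkn1a, the cell cycle inhibitor p21, went from 1.47 and 1.97 to 10.9 and 24.3 CPM (3.28). For both genes the YFP+ libraries lay above the total libraries without overlap. The death receptor Tnfrsf10b was 1.86, the BH3-only gene Bbc3 1.55, Zmat3 1.34, Ccng1 1.26 and Bax 0.90. Eda2r was counted by 0 and 1 UMIs in total and by 27 and 58 UMIs in YFP+ B cells, too few in total for a fold. Mdm2, which feeds back on p53, was 0.25, and Sesn1 was the 1 called lower, at -0.41. Gdf15, a secreted stress factor at 1.61 and 0 CPM in total and 0.477 and 0.0225 CPM in YFP+ B cells, had the lowest value (-1.54) and was not called. The count higher was 9 to 11 without 1 cKO library, and 8 of 15 with cells thinned, at a median of 0.46. In the integrated stress response list, read out when eIF2 is phosphorylated, 11 of 20 rose and 1 fell. Atf4, its main transcription factor, was 1.35, Slc7a5 1.34 and Psat1 1.00. Atf3 at -1.61 was the 1 that fell, and Trib3 (-0.77) and Chac1 (-0.02) were not called. The list's median was 0.72 between the cKO sorts and 0.87 between the control sorts. Without 1 cKO library 5 to 10 were called higher, and with cells thinned 6 of 18, at a median of 0.38 against 0.72.

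Of 20 activation genes 8 rose and 3 fell, and without 1 cKO library 5 to 7 were called higher and 0 to 1 lower. Egr2 was 1.75, Batf, an AP-1 factor of class switching, 1.62, Il2ra 1.28 and Ccnd2, cyclin D2, 1.06. Il2ra stood at -0.00371 with cells thinned and at -0.30 without the deepest 5%. The early response genes Egr3 (-0.54), Nr4a1 (-0.43) and Nr4a3 (-0.33) were the 3 of 20 that fell, near the 14.1% of all genes. Myc (0.18), Cd69 (0.01) and Cd83 (-0.13) were not called. In the NF-kB list 3 of 17 fell, where 14.1% of all genes did, and Rel, the c-Rel subunit, stood at -0.33. In the same list 9 rose, led by the feedback genes Tnip3 (3.16), Traf1 (1.30) and Nfkbia (0.76). That count was 4 to 7 higher without 1 cKO library and 6 with cells thinned. Among 14 IL-4 receptor and response genes, 5 rose and 1 fell, with a median of 0.30. Without 1 cKO library that median was 0.15 to 0.42, and the 1 lower call was lost each time. Ccl22, a chemokine that draws CCR4+ T cells, was 3.41, Nfil3 1.19 and Il4i1 0.62, while the receptor Il4ra (0.08) and Fcer2a, which encodes CD23 (0.31, adjusted p = 0.0570), were not called.

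**Figure D2:**
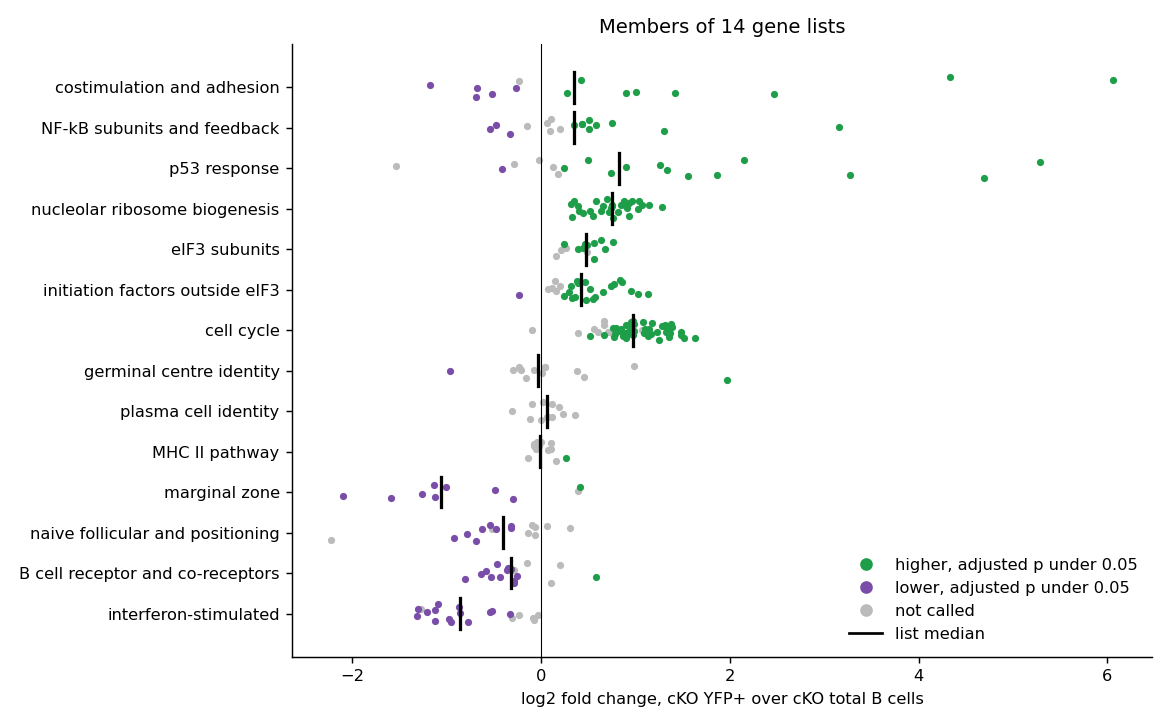
Log2 fold change of every tested gene of 14 lists, cKO YFP+ over cKO total B cells, with 1 point per gene, coloured by direction where the adjusted p is under 0.05 and grey otherwise, and a black bar at each list's median. All 30 nucleolar genes lie right of 0, most marginal zone and interferon-stimulated genes lie left of it, and the plasma cell genes stay grey around 0.

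Most marginal zone genes and part of the naive follicular list were lower in YFP+ B cells. Cr2, complement receptor 2, which marginal zone B cells carry at high levels, fell from 319.6 and 167 CPM in total to 92.2 and 31.3 CPM in YFP+ B cells (log2 fold change -2.10 ± 0.18 SE, adjusted p = 0.00131). Batch 2 was lower in both sorts, and within each batch the YFP+ library was lower. Of 10 marginal zone genes, 8 fell and 1 (Marcks) rose, with a median of -1.06, and -0.74 between the control sorts. Cd9 fell by 1.26, Cd1d1 by 1.14 and Dtx1, a Notch pathway gene, by 1.12. With 1 cKO library left out 6 to 7 were called lower, and with cells thinned 6, at a median of -0.68. In the naive and positioning list 8 of 16 fell, among them Ccr7, which guides cells to T zones, at -0.92, Cd55 at -0.79 and Cxcr5, the follicle homing receptor, at -0.69, and 4 to 5 were called lower without 1 cKO library. The list's median was -0.40, and -0.16 with cells thinned, against -0.91 between the control sorts. Klf2 (0.07) and S1pr1 (-0.52) were not called.

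The B cell receptor list, signalling proteins and lineage factors, had 12 of 17 lower and 1 higher. Its median was -0.32, and -0.30 between the control sorts. Bank1, an adaptor of receptor signalling, stood at 2075 and 1695 CPM in the total libraries and 1173 and 982 CPM in the YFP+ libraries (-0.81), Syk at -0.64 and Lyn at -0.58. The lineage factors Ebf1 (-0.47) and Pax5 (-0.36) fell as well, and Cd72, an inhibitory co-receptor, rose by 0.58. In each refit without 1 cKO library 5 were called lower, and with cells thinned 8, at a median of -0.20. Interferon-stimulated genes fell in 14 of 20, with a median of -0.86: Oasl1 was -1.32, Ifit3 -1.21, Irf7 -0.96 and Isg15 -0.77. The count lower was 5 to 9 without 1 cKO library. With cells thinned 9 of 19 were lower, with a median of -0.43, and between the control sorts the median of these genes was -1.11.

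Several of the genes that fell most mark other cells. The 6 NK markers summed to 40.4 and 30.7 CPM in total and 7.28 and 5.15 CPM in YFP+ B cells, and the 10 myeloid markers to 199.9 and 245 CPM in total and 102 and 39.2 CPM in YFP+. For 6 dendritic cell markers the sums were 21.0 and 16.2 CPM in total and 23.0 and 13.6 CPM in YFP+, and for 6 erythroid markers 79.4 and 487 CPM in total and 17.8 and 8.45 CPM in YFP+. The counts lower were 5 NK, 5 myeloid, 4 dendritic and 2 erythroid markers, and Zbtb46, a dendritic cell factor, was higher. S100a8, a neutrophil protein, had 1405 and 2371 UMIs in total and 6 and 0 UMIs in YFP+ B cells. Calls of S100a8, S100a9 and Agbl1 (-2.00) were lost without any 1 of the 4 cKO libraries, and that of Ccl5 (-4.03) in 3 of those 4 refits. The T cells that the gate left out were 1735 and 1806 cells in total and 218 and 18 cells in YFP+ libraries. How far RNA of such cells enters the lower calls was not tested. Tyrobp (-1.92) and Cd36 (-1.66), which myeloid cells express too, were also among the 14 of at least 20 CPM that fell most, with Cyp4f18 (-1.60), Pde2a (-1.46), Maml3, a Notch coactivator (-1.40), St6galnac3 (-1.40), Rasgef1b (-1.35) and Nxpe2 (-1.35).

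Few germinal centre and plasma cell genes passed the test between the cKO sorts when all B cells were summed. Of 14 germinal centre genes, Fas rose, from 13.3 and 21.8 to 67.8 and 66.1 CPM (1.97), and Ackr2 fell (-0.97). Bcl6 (-0.22, adjusted p = 0.0517), S1pr2 (0.04) and Gcsam (-0.22) were not called. Of 12 plasma cell genes edgeR called 0, with 1 at an unadjusted p under 0.05 and 1 lower by DESeq2. Their median was 0.07, and Prdm1, Jchain and Sdc1 changed sign when 1 cKO library was left out. In those refits 0 to 5 were called higher and 0 to 3 lower, with medians from -0.29 to 0.47. Jchain, the joining chain of secreted antibody, was called lower without total replicate 1 (-0.74) and higher without total replicate 2 (0.88), so its batches moved in opposite directions. These counts depended on which cells were summed. The gates were read from UMIs of germinal centre and plasma cell genes, so the counts without gated cells are in part set by that choice and are a description. Leaving out cells in the 3 gates, 7 of 14 germinal centre genes were called higher, at a median of 0.41, and 6 of 12 plasma cell genes, at a median of 0.23, where 20.9% of all genes were called higher. Leaving out the deepest 5% of cells, 7 of 14 and 7 of 12 were called higher, at medians of 1.36 and 0.87. In that setting 2332 of all 15796 genes tested were called higher.

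Ighg1, the heavy chain gene whose transcription drives Cre, had overlapping levels in the cKO sorts, at 399 and 490.3 CPM in the total libraries and 476 and 419.7 CPM in the YFP+ libraries (log2 fold change 0.02 ± 0.75 SE, adjusted p = 0.991). In control mice the sorts stood far apart, at 3.02 and 1.70 CPM in total and 337 and 1682 CPM in YFP+ B cells. Ighe, the IgE heavy chain, was high and uneven in cKO, at 181 and 946 CPM in the total libraries and 183 and 532 CPM in the YFP+ libraries, against 0.133 and 58.5 CPM in control total and 14.2 and 14.1 CPM in control YFP+ B cells. Ighm was -0.16 and Ighd -0.23, neither called. Ighg3 was the 1 of 8 heavy chain genes called, at 11.2 and 11.2 CPM in the total libraries and 130.2 and 55.9 CPM in the YFP+ libraries (2.94), a call lost in all 4 refits without 1 cKO library.

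Gates set on single cells thinned to 2000 UMIs gave the share of B cells in each state. Cycling cells, with at least 3 UMIs over 12 mitotic and replication genes, made up 2.74% (95% interval 2.35 to 3.16) and 2.71% (95% interval 2.32 to 3.15) of total and 8.26% (95% interval 7.70 to 8.84) and 6.28% (95% interval 5.81 to 6.77) of YFP+ B cells in cKO mice. In control mice the shares were 1.67% and 0.935% of total and 14.8% and 23.7% of YFP+ B cells. Both cKO YFP+ libraries lay above both cKO total libraries, and both lay below the control YFP+ libraries. Intervals are exact binomial ones for counting error only. With 2 libraries a group, an exact permutation test cannot go below p = 0.333, and the shares are given as a description with no test run on them.

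At least 1 Ighg1 UMI was found in 5.66% (95% interval 5.11 to 6.25) and 5.71% (95% interval 5.14 to 6.32) of total and 13.6% (95% interval 12.9 to 14.4) and 12.2% (95% interval 11.6 to 12.9) of YFP+ B cells of cKO mice. The T cells of the cKO total libraries, which should lack it, gave 4.13% and 2.92%, nearer to the total than to the YFP+ B cells. Median depths before thinning were 6451 and 6963 UMIs in those T cells. The germinal centre gate held 10.1% and 8.76% of total and 12.7% and 9.48% of YFP+ B cells in cKO, higher in YFP+ within each batch with ranges that overlapped across batches, where T cells gave 5.94% and 3.48% and control YFP+ B cells 22.5% and 31.0%. The plasma cell gate held 1.21% and 1.88% of cKO total, 2.35% and 2.06% of cKO YFP+ and 11.3% and 13.3% of control YFP+ B cells. Cells in the resting gate were 75.0% and 79.6% of total and 74.8% and 78.3% of YFP+ B cells in cKO, and 46% and 43.6% of control YFP+ B cells. Read on cells of full depth, cycling cells were 4.03% and 5.20% of total and 13.9% and 12.6% of YFP+ B cells, and cells with Ighg1 12.8% and 12.7% of total and 28.1% and 25.3% of YFP+.

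**Figure D3:**
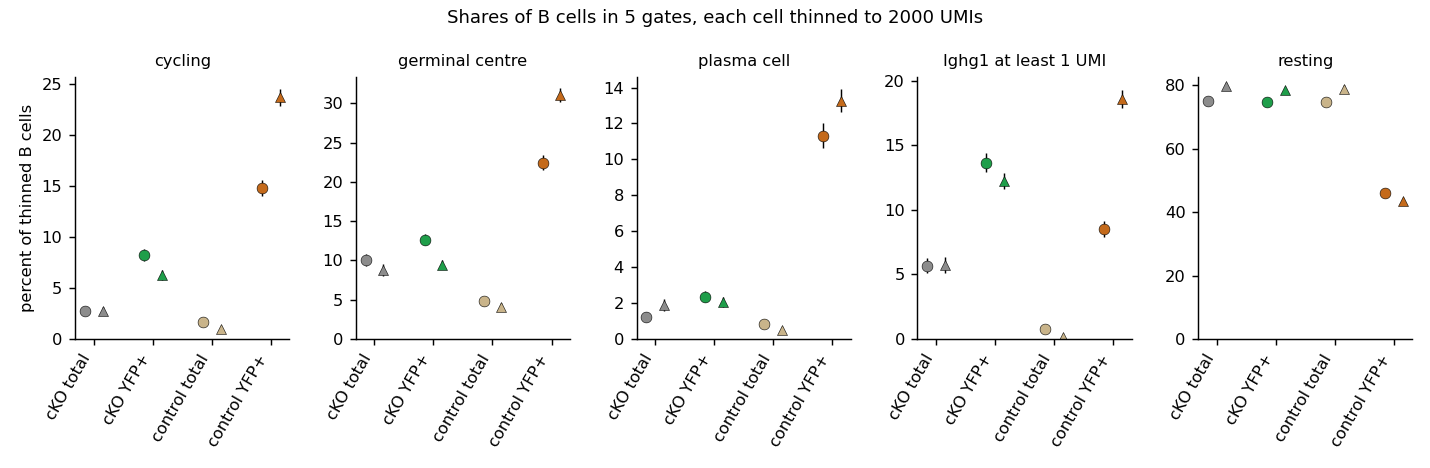
Percent of thinned B cells in each gate, with 1 point per library for the 4 groups and bars for exact 95% binomial intervals. Cycling shares of cKO YFP+ B cells, 8.26% and 6.28%, lie between those of cKO total and control YFP+ B cells, and the resting shares of cKO total and cKO YFP+ B cells overlap.

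Cells with Cd80 were followed in the thinned YFP+ libraries, as a description across cells that share a library and, after thinning, a depth. A Cd80 UMI was found in 202 and 173 of these cells. Tnfsf4 was detected in 13.4% (95% interval 9.00 to 18.8) and 14.5% (95% interval 9.58 to 20.6) of cells with Cd80 and in 0.302% and 0.241% of cells without. Socs2 was detected in 10.4% (95% interval 6.55 to 15.5) and 13.9% (95% interval 9.10 to 19.9) with Cd80 and 1.07% and 1.45% without. For Timd2 the shares were 16.3% and 19.7% with and 2.36% and 2.85% without, and for Fabp5 28.2% and 27.7% with and 4.72% and 5.84% without. Detection of each of these 4 genes was thus more frequent in cells with Cd80, in both batches. Cd86 ran the other way, at 23.8% and 17.9% with and 40.1% and 33.7% without Cd80, as did Cr2, at 8.91% and 2.31% with and 16.4% and 6.07% without.

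Of the cells with Cd80, 32.2% and 20.2% were in the cycling gate and 56.4% and 67.1% lay outside the cycling, germinal centre and plasma cell gates. Of the cells with no Cd80 UMI these shares were 7.72% and 6.03% and 82.0% and 85.3%. The control YFP+ libraries had 566 and 470 cells with Cd80. Tnfsf4 was found in 6 and 0 of these, Fabp5 in 1.59% and 1.70% and Cd86 in 55.1% and 45.3%. A Cd80 UMI was present in 0.892% and 0.653% of total and 2.21% and 1.70% of YFP+ B cells in cKO, and in 1.74% and 1.08% of total and 6.81% and 4.29% of YFP+ B cells in control mice. T cells of the cKO total libraries gave 5.36% and 9.20%, above the B cells, so they set no background for this gene.

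**Figure D4:**
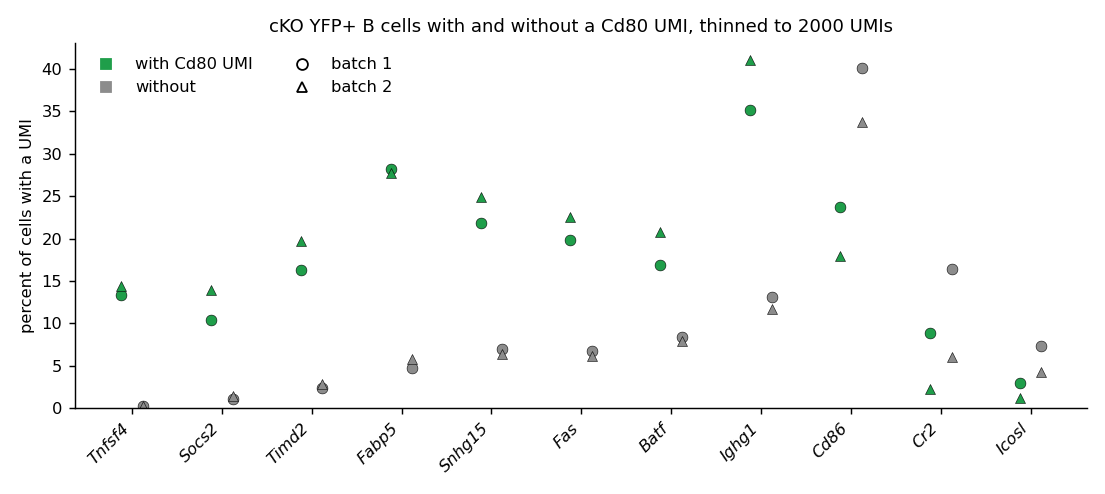
Percent of thinned YFP+ B cells of cKO mice in which another gene was detected, for cells with a Cd80 UMI (202 and 173 cells) and cells without one, with 1 marker per batch. Tnfsf4, Socs2, Timd2 and Fabp5 are higher in cells with Cd80, and Cd86 and Cr2 are lower.

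The difference between sorts was then compared with the same difference in control mice, as an interaction term in the same fit. Between the control sorts 8172 genes (49.6%) passed. The difference, cKO minus control, passed for 2361 genes (14.3%), above 0 for 882 (5.35%) and below 0 for 1479 (8.97%). A difference below 0 can be a smaller rise or a deeper fall in cKO. Without the block 107 passed. Leaving out 1 library gave 861 to 4356, with 1572 without cKO total replicate 1, 1036 without cKO YFP+ replicate 1, 1016 without cKO total replicate 2, 861 without cKO YFP+ replicate 2, and 4356 without either control library of batch 1. Cd80 was also higher in YFP+ B cells of control mice, at 14.2 and 8.71 CPM in total and 36.3 and 24.5 CPM in YFP+ (log2 1.42). The gap in cKO exceeded this by 1.04 ± 0.12 log2 units (SE), with an adjusted p of 0.00407, although the YFP+ levels of batch 1 were close and both control total levels lay above the cKO ones. That gap rested on the deepest cells: the difference was -0.54 with cells thinned and -0.49 without the deepest 5%, below 0 in both and not called (adjusted p = 0.114 and 0.0916), and 0.0189 outside the gates (0.965). Tnfsf4 was low in both control sorts, 0.822 and 0.383 CPM in total against 1.35 and 0.745 CPM in YFP+ B cells, and its change was larger in cKO by 5.26 ± 0.31. Socs2 was larger by 1.72 ± 0.19, Phlda3 by 3.92 ± 0.63 and Cdkn1a by 3.27 ± 0.26, all called. With cells thinned Tnfsf4 (4.18) and Cdkn1a (1.62) were still called, and Socs2 (1.14, adjusted p = 0.156) and Phlda3 (3.46, 0.0670) were not.

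Thy1 and Scn3a moved in opposite directions by genotype. In control mice Thy1 went from 1.38 and 3.23 CPM in total to 0.231 and 0.192 CPM in YFP+ B cells, and the difference between genotypes was 5.90 ± 0.49. For Scn3a the control values were 0.378 and 0.574 CPM in total and 0.0364 and 0.0677 CPM in YFP+, and the difference was 6.36 ± 0.95. With cells thinned the Scn3a difference was 4.75 and still called. It was not called without the low-count filter (adjusted p = 0.106), without the deepest cells (0.0593) or outside the gates (0.0800). Nor was it called without the block (0.194). The call was also lost when any 1 control library was left out, with the difference at 6.19 to 6.46. Of 30 nucleolar genes 20 had a difference called above 0, where 5.35% of all genes did, and their control median was 0.23. The cell cycle, germinal centre and plasma cell lists ran the other way, with control medians of 2.62, 3.21 and 2.38. Their difference was called below 0 for 35 of 50, 12 of 14 and 11 of 12 genes, where 8.97% of all genes were. These list counts were not made with cells thinned or outside the gates. For Gcsam the control values were 3.64 and 2.75 CPM in total and 48.8 and 101 CPM in YFP+ B cells, and for S1pr2 2.35 and 1.87 CPM in total and 34.8 and 45.4 CPM in YFP+. The cKO medians of these 3 lists were 0.97, -0.03 and 0.07.

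**Figure D5:**
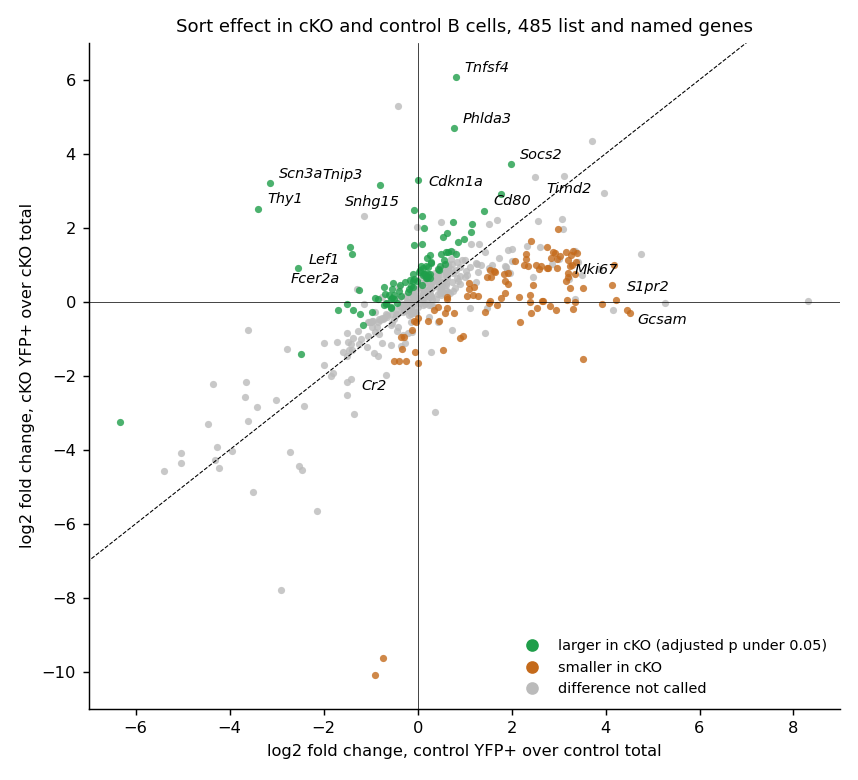
Log2 fold change, YFP+ over total B cells, in control mice (x) and cKO mice (y) for 485 list and named genes, with 1 point per gene, coloured where the difference between genotypes has an adjusted p under 0.05. Points on the dashed line have equal change in both. Tnfsf4, Socs2 and Phlda3 lie above the line and Gcsam, S1pr2 and most cell cycle genes below it.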

How the data were processed

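Single-cell RNA was measured by a droplet kit that counts 3′ ends. The values are whole-number UMI counts per gene and cell, deposited by the authors without normalization. The labels name GRCm38 and mm10, the sources used here name no aligner, annotation or strand setting, and overlapping and antisense genes such as Zfas1 may share counts. The authors removed cells under 201 UMIs, under 101 genes or over 10% mitochondrial UMIs, and merged replicates in later steps, which were not used here.

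Cells were kept as the study did and gated as B cells, and UMIs were summed per library. Groups and batch numbers come from the labels. CPM are UMIs scaled to the total of that sum as adjusted by edgeR's TMM normalization factor of the library. These factors ran from 0.8565 to 1.147, so CPM differ from the plain ratio of UMIs to that total. Sums were tested by edgeR 4.0.16 (R 4.3.3, TMM, filterByExpr, robust quasi-likelihood F test) over all 8 libraries, with genotype and batch as a block, 1 sort effect per genotype and 2 residual degrees of freedom, and p-values were adjusted by Benjamini-Hochberg over 16490 genes. Every adjusted p comes from this test unless another setting is named beside it. Gate and mitochondrial genes were not tested. Batch numbers are shared by the sorts in the labels, and total and YFP+ libraries of 1 number deviated together (r = 0.57 in cKO, 0.495 in control, across 16490 genes). Libraries are pools of several mice, so the spread between single mice is not measured. With the block, p-values rest on how the YFP+ to total difference varied between pairs, and on spread shared across genes by the fit. Replicates differed by more than counting noise (chi-square per degree of freedom 98.6 to 288).

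Named genes were the 14 with the largest and the 14 with the smallest log2 fold change among called genes with at least 20 CPM in the higher group and the same direction in both batches (no immunoglobulin segments, gate genes, Gm or Rik names), up to 4 called members of each of 28 lists, a fixed set of genes of interest, and, among called differences with the same filters and 20 CPM in the highest of the 4 groups, the 6 largest and 6 smallest between genotypes. Other genes were named after their values were seen, as examples of a list. The members, lists and tests were chosen with earlier results of these data known, and 4 further lists were put together after these values were seen. Of the symbols of the 28 lists, Ddit3 and Aldoa have more than 1 identifier and were left out, Vldlr fell under the filter and Mx1 and Mx2 were not matched. Of the 20 symbols of the added snoRNA host list, Snhg7os, Snhg11 and Snhg4 were not tested. Some named genes are not reported here.

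Positions are from GENCODE vM21 and promoters from RefSeq, both on GRCm38. Cells with B and T markers were left out, no doublet caller was run, and leaving out the deepest 5% of B cells is an alternative. The fit was tested on simulated data. The alternatives were a fit of the 4 cKO libraries, no block, DESeq2 1.42.0, RLE scaling, other filters, no immunoglobulin genes, 5 marker UMIs, thinned cells, cells outside the gates, no deepest cells and each library left out.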

Additional observations from a re-analysis of the deposited data

Results flagged for a closer look

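For 21 of the genes named for the largest changes or the largest differences between genotypes, the change between sorts differed between cKO and control mice by the interaction term of the edgeR fit (adjusted p under 0.05). Genes named only through lists are not repeated here. Values are the log2 fold change, YFP+ over total, in cKO minus that in control.

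Above 0 were Scn3a (6.36), Thy1 (5.90), Lef1 (3.46), Ralyl (2.91), Snhg15 (2.56) and Csf1 (2.24). So were Socs2 (1.72), Rangrf (1.40), Fabp5 (1.14), Maml3 (1.08), Cd80 (1.04) and Shmt1 (0.93). The difference of Cd80 was -0.54 with cells thinned and -0.49 without the deepest cells, so it did not hold at one depth per cell. Maml3 fell in both genotypes, at -1.40 in cKO and -2.49 in control. Lef1, a transcription factor of T cells and B cell precursors, was 18.7 and 18.0 CPM in cKO total and 35.7 and 33.8 CPM in cKO YFP+ B cells, and 25.4 and 23.0 CPM in control total and 4.58 and 3.77 CPM in control YFP+ B cells. Its rise in cKO turned to -0.25 with cells thinned and to -0.19 without the deepest cells.

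Below 0 were S100a8 (-9.19), S100a9 (-8.90), Slpi (-4.83), Gcsam (-4.67), S1pr2 (-4.19), Mybl1 (-4.00), Cd36 (-1.67), Nxpe2 (-1.29) and Cyp4f18 (-1.10). Cd36, Nxpe2 and Cyp4f18 fell in cKO, so their values below 0 are not smaller changes. S100a8 and S100a9 rest on a few UMIs in cKO YFP+ B cells. The difference was called below 0 for 2 of 10 myeloid markers and for 0 NK, dendritic cell or erythroid markers, where 8.97% of all genes were. It was called above 0 for 2 of 6 dendritic cell markers, where 5.35% of all genes were. The explanations of these differences were not tested.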

How the results depend on the processing

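The count of 5425 genes was within 1.5 times under the fit of the 4 cKO libraries alone (7352), DESeq2 (4540), RLE scaling (5535), no filter (5387), 1 CPM (5048), no immunoglobulin genes (5637), 5 marker UMIs (5477), cells outside the gates (5648) and no deepest cells (3740). It was 2586 with thinned cells, and 1241 to 7327 when 1 library was left out. The 2361 genes whose change differed by genotype became 1248 with thinned cells, 1567 outside the gates (720 of the 2254 calls that could be tested there remained, and 1853 had the same direction), 1455 without the deepest cells and 861 to 4356 when 1 library was left out. A cKO library left out leaves 1 cKO pair, which is assumed to vary like the control pairs. Without the replicate block 231 and 107 genes passed, so both counts depend on pairing the sorts by batch. Of 124 called named genes, 89 lost their call without it. Causes were not tested.

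Of 2828 alternative values for 150 named genes, 2423 kept direction and side of the threshold, 294 lost the call, 59 gained it and 52 changed sign. Log2 fold changes of changed sign were Ighd 0.0487, Ciita 0.12, Cd83 0.0487, Cxcr3 0.37, Lef1 -0.25, Gcsam 0.11, Mybl1 0.53, Il2ra -0.00371 with thinned cells; Ighm 0.13, Ighe 3.05, Ciita 0.0486, Cxcr3 0.31, Lef1 -0.19, Slpi 2.37, Gcsam 1.81, Mybl1 1.40, Il2ra -0.30 without the deepest cells; Ighe 0.34, Ciita 0.0749, Jchain -0.0288, Slpi 0.72, Mybl1 1.21 outside the gates; Jchain -0.13, Cd69 -6.01e-05 without the block; Ighg1 -0.00602, Cd69 -0.00876 with the 4 cKO libraries; and Ighg1 -0.00219, Cd69 -0.00496 with 1 CPM. With 1 library left out the ranges were Ighg1 -0.22 to 0.26, Ighe -0.83 to 0.0188, Ciita -0.10 to 0.0203, Prdm1 -0.27 to 0.67, Jchain -0.74 to 0.88, Sdc1 -0.39 to 0.69, Cd69 -0.0619 to 0.0958, Il4ra -0.00738 to 0.18, Cxcr3 -0.62 to 0.35, Gcsam -0.73 to 0.29, S1pr2 -0.38 to 0.48, Mybl1 -0.60 to 0.47. Lef1 (0.92) and Il2ra (1.28) were called higher as reported. Of 24 genotype differences printed for single genes, 16 kept direction and call with thinned cells, 7 lost the call and Cd80 changed sign (-0.54). Without the deepest cells the counts were the same, with Cd80 at -0.49, outside the gates 18 kept and 6 lost the call, and without the block 18 lost it.

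On cells of full depth the share differences, YFP+ minus total in cKO, were 8.61 percentage points for cycling (thinned 4.54), 9.52 for germinal centre (1.65), 4.25 for plasma cell (0.660), 0.594 for resting (-0.782), 14 for 1 or more Ighg1 UMIs (7.24), 9.97 for 3 or more (0.997), 2.85 for Myc (-0.207) and 7.74 for cycling germinal centre cells (0.993). Thinning limits genes of low level, such as Cd70 and Eda2r, to few UMIs.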

Other observations

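Noncoding hosts of small nucleolar RNAs and enzymes of one-carbon, nucleotide and polyamine synthesis also rose in cKO YFP+ B cells, in lists put together after these values were seen. Of 17 snoRNA host genes 12 rose, with Zfas1 at 1.55, Snhg6 at 1.36 and Gas5 at 0.96, and the median was 0.50 against 0.04 between the control sorts. With 1 cKO library left out 6 to 8 were called higher. Of 20 one-carbon, nucleotide and polyamine genes 16 rose (9 to 16 without 1 cKO library), led by Shmt1 and by Srm, spermidine synthase, at 1.70, and the control median was 0.70 beside 0.84 in cKO. With cells thinned 13 rose, at a median of 0.36, and of the snoRNA hosts 7, at a median of 0.31. Within the TIM family, Timd2 and Havcr1 (1.97) rose, Havcr2 fell (-2.59) and Timd4 was -0.54 and not called.

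In the Bcl2 family 7 of 16 rose and 2 fell, and without 1 cKO library 4 to 6 were called higher and 0 to 1 lower. Bcl2l1, which encodes the survival protein Bcl-xL, was 1.89 and the proapoptotic genes Bbc3 and Bax rose too, while Bmf (-0.96) and Mcl1 (-0.31) fell. Over all genes 18.8% rose and 14.1% fell, the second near the share that fell here. The list's median was 0.40, and 0.64 between the control sorts. The near-identical Bcl2a1a, Bcl2a1b and Bcl2a1d may share reads. Of 17 glycolysis genes 8 rose (5 to 8 without 1 cKO library), among them Hk2 (1.36) and Ldha (0.95). The median of the glycolysis list was 0.26 in cKO and 0.64 between the control sorts. Of 12 B1 and T-bet linked genes 2 rose, Zeb2 (0.68) and Tbx21 (0.47), where 18.8% of all genes did. There were 4 that fell, with Cd5 at -1.48 and Fcrl5 at -1.20, where 14.1% of all genes fell. The list's median was -0.11, and 1.24 between the control sorts. Without 1 cKO library 1 was called higher and 1 to 3 lower. In the memory list 3 of 8 were called, near the share over all genes (32.9%): Il9r rose and Hhex (-0.55) and Zbtb20 (-0.52) fell. Without 1 cKO library 0 to 2 were called lower. Among 3 BAFF and APRIL receptors, Tnfrsf13c, the BAFF receptor, fell (-0.45), 1 of 3 as in 32.9% of all genes, and it was called lower in 0 of the refits without 1 cKO library.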
